A study of Mus musculus with 85 samples.

Results

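Hematopoietic cluster cells of the mouse embryo were compared with the hemogenic endothelial cells (HEC) of the same day, cell by cell, across all genes named on the array. The comparison holds the 28 arrays titled as E10.5 cluster cells and the 7 arrays titled as E10.5 GFP-positive endothelial cells. These are 35 of the 85 arrays in the series, and each array carries the amplified RNA of 1 cell. The cluster cells came from the caudal part of wild-type embryos at embryonic day 10.5 and were sorted as c-Kit+ CD31+ CD45+ SSEA1-. The HEC came from the caudal part of embryos of the same day that carried the eR1-GFP transgene, in which an enhancer of Runx1 drives GFP, and were sorted as GFP+ CD31+ Ter119- CD45- CD41-. Both were dissociated with collagenase. The series also holds E10.5 endothelial cells without GFP (EC, 7 cells), E12.5 cluster cells (16) and E14.5 fetal liver hematopoietic stem cells (HSC, 27 arrays). Stage and tissue were shared by the compared populations, while genotype and gate differed, and these cannot be told apart from cell identity.

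Blood stem and progenitor cells first arise in the embryo when some endothelial cells of the large arteries round up, leave the vessel wall and enter clusters that protrude into the lumen, a step known as the endothelial-to-hematopoietic transition. Endothelium is held together by cadherin and claudin junctions, lies on a basement membrane of collagen and laminin, and is shaped by VEGF, Tie, Notch and ephrin signals. Blood cells lack such junctions and use their own set of integrin activators and receptor-linked kinases, under transcription factors such as PU.1 (encoded by Spi1), Myb and Ikaros (Ikzf1).

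Values are log2 expression values. The lowest values lay near 2.3, a gene with a value above 5 is called above background, or detected, in that cell, and 9667 of the 18193 genes named on the array were above 5 in at least 3 of the 35 cells and are called measured. A difference is the mean over cluster cells minus the mean over HEC, and genes with a difference of at least 2 log2 units either way, 4-fold on the linear scale, are called higher or lower. Where 1 population sat at the floor, the difference says only how far the other lay above it. The labels tie no cell to an animal or litter. Each population is therefore 1 sample, no test was made between them, and every SD is over cells. Cluster cells had more probe sets above background (8207 to 11435, median 9925.5) than HEC (6630 to 9020, median 7793), and the part of this gap in the results was not tested. Genes of the gates (Ptprc, Kit, Pecam1, Itga2b, Fut4) are not results. The CD45 gene Ptprc was detected in 26 of the 28 cluster cells and no HEC. At least 2 of 5 endothelial markers (Cdh5, Kdr, Tek, Esam, Emcn) were found in 11 cluster cells and all 7 HEC, and at least 2 of 3 blood markers (Coro1a, Spi1, Ikzf1) in all 28 cluster cells and 0 HEC. Several defining markers of other cells were absent: C1qa, C1qb and C1qc of macrophages, Hba-a1 of red cells, Pdgfra, Col1a1, Acta2 and Cspg4 of mesenchymal and mural cells, Epcam and Cdh1 of epithelium, Sox10 of neural crest, and Alb and Afp of liver were above background in 0 of the 35 cells. Other markers of these types were found: Pdgfrb in 6 cluster cells, Twist1 in 3 cluster cells and 1 HEC, and the epithelial Krt8 in 4 cluster cells. No cell had 2 or more of the mesenchymal and mural markers, or 2 or more of the epithelial markers. At least 2 of the 3 platelet markers (Pf4, Ppbp, Gp9) were found in 4 cluster cells and 0 HEC, 2 or more of 7 macrophage markers in 4 cluster cells and 0 HEC, and 2 or more of 4 erythroid markers in 2 cluster cells and 0 HEC. The summed log2 values of the platelet markers ran from 6.67 to 26.3 in cluster cells and from 7.04 to 7.14 in HEC. Those of the macrophage markers ran from 18.2 to 34.2 in cluster cells and from 18.9 to 30.2 in HEC, and those of the erythroid markers from 9.01 to 30.2 in cluster cells and from 9.26 to 15.1 in HEC. Their part in the differences was not tested.

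Of the 9667 measured genes 2706 (27.99%) were higher and 890 (9.21%) lower in cluster cells than in HEC, and the median difference over all genes was 0.91. The genes called higher were detected in a median of 24 of 28 cluster cells and 2 of 7 HEC, and 496 of them in no HEC. The genes called lower were detected in a median of 5 of 28 cluster cells and 5 of 7 HEC, and 117 of them in no cluster cell. The balance of higher over lower genes depended on the scaling, in both directions. Of the called genes 75.3% were higher with the values as deposited, 55.6% after quantile normalization of the 35 arrays (1644 higher and 1314 lower) and 83.9% with each array shifted to the same median (3612 higher and 695 lower), and the median over all genes was 0.38 and 1.42 under these 2 scalings. The 7 cluster cells with the fewest probe sets above background (8207 to 9323), set against the 7 HEC, gave 1620 higher and 1295 lower genes. That choice also changes the number of cluster cells and which of them are compared, and these cannot be told apart. A much smaller group of genes did not overlap at all between the populations. In 14 genes (0.145%) every cluster cell was above every HEC and above 5. In 45 (0.466%) every HEC was above every cluster cell and above 5. Genes without overlap whose higher population had a cell at or below 5, such as Psph, are not counted. The rule asks for detection in all 28 cluster cells on 1 side and in all 7 HEC on the other, so the counts are not like for like. One of the 45 is the gate gene Pecam1. The 14 became 23 without HEC cell 3, and likewise 23 without cluster cells 17, 23 and 26.

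Plek, Myb, Cldn5 and Mest mark the 2 sides of the comparison, and Fermt3 and Fermt2 encode related proteins that lie on opposite sides. The 250 bases before the transcription start of these 6 genes are printed to show the DNA just upstream of these marker genes and of the related pair. They are RefSeq sequences of build GRCm38.p6, written 5′ to 3′ on the gene's strand, and for Mest the first start in the table is used. Capitals mark GAGGAA, the core of PU.1 sites, or CAGGAA, a core of sites of other ETS factors, or the reverse complement of either.
Plek: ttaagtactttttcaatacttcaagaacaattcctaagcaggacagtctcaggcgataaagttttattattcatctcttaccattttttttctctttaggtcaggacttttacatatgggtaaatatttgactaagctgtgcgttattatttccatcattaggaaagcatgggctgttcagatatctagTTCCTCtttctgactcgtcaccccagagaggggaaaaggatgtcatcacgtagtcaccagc
Myb: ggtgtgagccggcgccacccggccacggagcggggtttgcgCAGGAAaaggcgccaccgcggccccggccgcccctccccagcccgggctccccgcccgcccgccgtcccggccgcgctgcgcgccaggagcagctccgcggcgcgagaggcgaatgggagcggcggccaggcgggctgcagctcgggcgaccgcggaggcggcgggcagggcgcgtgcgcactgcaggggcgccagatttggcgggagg
Fermt3: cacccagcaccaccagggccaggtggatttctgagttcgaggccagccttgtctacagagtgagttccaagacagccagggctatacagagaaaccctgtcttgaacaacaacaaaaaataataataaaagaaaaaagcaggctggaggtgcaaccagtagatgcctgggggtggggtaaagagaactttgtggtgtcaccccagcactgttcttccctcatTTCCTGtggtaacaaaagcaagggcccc
Cldn5: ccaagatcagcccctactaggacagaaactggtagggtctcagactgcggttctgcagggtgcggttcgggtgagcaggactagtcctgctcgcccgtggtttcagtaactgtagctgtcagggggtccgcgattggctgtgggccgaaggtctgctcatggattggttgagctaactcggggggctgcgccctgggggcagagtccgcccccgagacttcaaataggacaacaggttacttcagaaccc
Mest: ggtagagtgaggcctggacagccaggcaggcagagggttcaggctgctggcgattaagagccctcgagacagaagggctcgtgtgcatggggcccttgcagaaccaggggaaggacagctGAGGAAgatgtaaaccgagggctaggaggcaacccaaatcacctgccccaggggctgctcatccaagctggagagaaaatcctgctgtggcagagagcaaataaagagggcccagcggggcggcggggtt
Fermt2: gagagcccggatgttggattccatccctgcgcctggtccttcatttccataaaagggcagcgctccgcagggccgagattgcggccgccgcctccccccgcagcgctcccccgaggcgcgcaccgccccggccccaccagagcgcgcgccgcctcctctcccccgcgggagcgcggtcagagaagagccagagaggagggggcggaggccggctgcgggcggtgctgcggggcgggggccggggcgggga
The Plek sequence lies at chr11:17008719-17008968 (minus strand), Myb at chr10:21160985-21161234 (minus strand), Fermt3 at chr19:7019470-7019719 (minus strand), Cldn5 at chr16:18776597-18776846 (plus strand), Mest at chr6:30733256-30733505 (plus strand) and Fermt2 at chr14:45530066-45530315 (minus strand). Plek and Mest each hold GAGGAA once on either strand, Myb and Fermt3 each hold CAGGAA once, and Cldn5 and Fermt2 hold neither. Of 32851 mouse promoter windows of the same length 23.3% hold GAGGAA and 25.7% hold CAGGAA on either strand. Of the genes that did not overlap, 12 of those higher in cluster cells had a window in the table, of which 4 held GAGGAA and 2 CAGGAA, and 27 of those lower had one, of which 7 and 5 did. The letters thus occurred in both sets. CpG pairs were few in the Fermt3 window (1) and the Plek window (4), and many in the Fermt2 window (31) and the Myb window (40), against a median of 6 over all windows.

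On the side of the cluster cells, 14 genes parted the cells without overlap by this rule, with Plek and Phgdh at the widest gaps. Plek, which encodes pleckstrin, a protein kinase C substrate of blood cells, ran from 11.31 through a median of 13.57 to 15.22 in cluster cells, and from 2.32 through 2.51 to 2.80 in HEC. The lowest cluster cell thus lay 8.51 log2 units above the highest HEC. Phgdh, the first enzyme of serine synthesis, ran from 12.43 through 13.96 to 14.80 in cluster cells, and from 2.50 through 2.78 to 3.96 in HEC, with a gap of 8.47. The actin-binding protein gene Coro1a had the least spread of these genes among cluster cells (14.38 ± 0.52, SD over 28 cells), against 4.02 ± 1.77 over 7 HEC, where HEC cell 2 stood apart at 7.92. Adcy7, an adenylate cyclase, spanned 9.66 to 14.12 in cluster cells and 2.32 to 3.01 in HEC. Myb spanned 7.08 to 14.04 in cluster cells, with a median of 12.10, and 2.40 to 2.69 in HEC, with a median of 2.49. The lymphoid adaptor gene Sash3 spanned 6.49 to 13.16 in cluster cells and stayed between 2.31 and 2.35 in HEC. Ikzf1 was at 10.19 to 13.58 in cluster cells, and in HEC it was near the floor apart from HEC cell 7, at 9.57. The others were Fam117a (difference 7.45), the exchange factor gene Arhgef6 (7.48), the phosphoribosyl-pyrophosphate synthetase relative Prps1l3 (7.70), the serine-to-glycine enzyme Shmt1 (5.82), the immunoproteasome subunit Psmb10 (7.40), the DNA methyltransferase Dnmt3b (6.56) and the signal peptidase subunit Sec11c (5.62). Dnmt3b and Sec11c were each above background in 4 of 7 HEC and still below every cluster cell.

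On the side of HEC, Cldn5, the main claudin of endothelial tight junctions, ran from 2.19 through 2.29 to 3.38 in cluster cells, and from 11.35 through 12.40 to 13.75 in HEC (gap 7.97). The fibrillar collagen gene Col5a2 was at 2.19 to 2.45 in cluster cells and at 10.72 to 14.36 in HEC, the widest gap of this side (8.28). Mest, an imprinted gene of the fetal growth network, had the largest difference of any gene (-11.37), with 2.19, 2.29 and 7.06 as lowest, median and highest value in cluster cells and 12.90, 13.86 and 14.92 in HEC. The highest of these is cluster cell 11, the 1 cluster cell with Mest above background. Nos3, which makes nitric oxide in endothelium, was at 2.19 to 2.33 in cluster cells and 9.05 to 12.09 in HEC. The endothelial exchange factor gene Arhgef15 was at 2.19 to 2.33 in cluster cells and 8.52 to 13.10 in HEC. The ephrin gene Efna1 reached 5.77 in 1 cluster cell, number 24, and spanned 10.43 to 13.78 in HEC. Crip2, a LIM-domain protein gene, was at 3.04 to 5.87 in cluster cells and 11.37 to 13.92 in HEC. Exoc3l4 (-7.57), the metalloprotease gene Adam19 (-7.23), the Rac exchange factor gene Prex2 (-7.99), Zcchc14 (-6.72), the adhesion gene Mcam (-7.85), Nrp1 (-9.88), the focal-adhesion scaffold gene Bcar1 (-7.22) and S100a16 (-9.12) were also on this side.

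**Figure D1:**
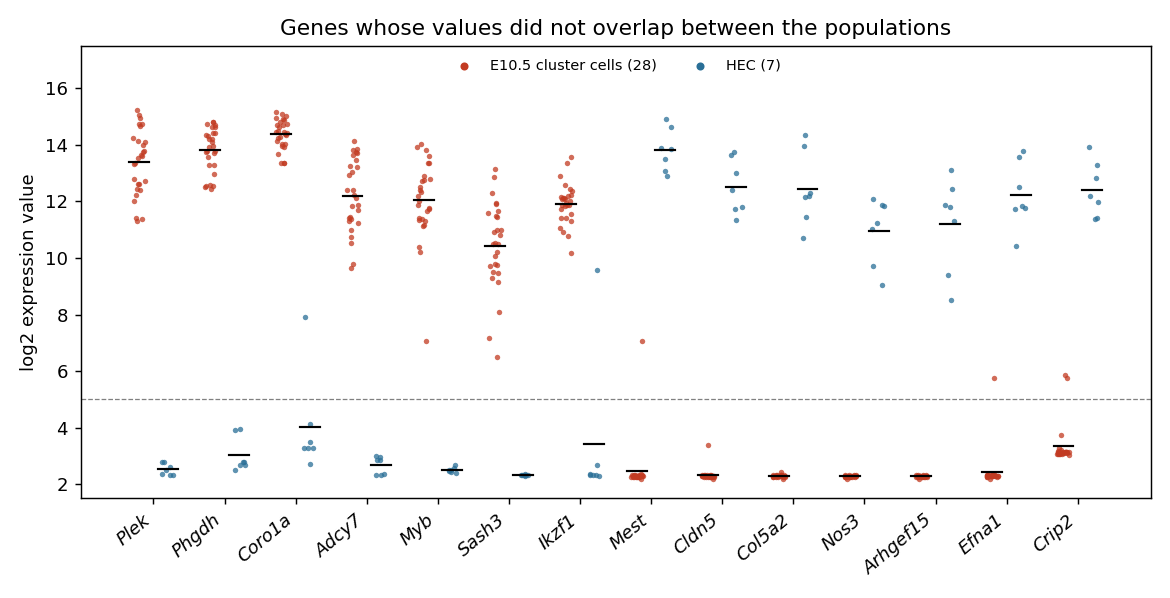
Log2 expression values of 14 genes whose values did not overlap, with 1 point per cell, the 28 E10.5 cluster cells in red to the left of the 7 HEC in blue, bars at the mean and a dashed line at the background threshold of 5. The left 7 genes are high in every cluster cell and the right 7 in every HEC, and single cells stand apart, such as HEC cell 7 at 9.57 for Ikzf1 and cluster cell 11 at 7.06 for Mest.

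Genes for the proteins that tie endothelial cells to each other and to their matrix were mostly lower in cluster cells. Of 19 measured junction genes 15 were lower and 0 higher (median -4.45, against 0.91 over all genes), and the mean over the list was 5.63 ± 0.91 in cluster cells and 10.66 ± 0.68 in HEC. The tight-junction scaffold genes Tjp1 (-8.99), Afdn (-9.46) and Cgnl1 (-7.34) and the junction receptor genes F11r (-5.43) and Nectin2 (-6.20) were lower. The catenin genes, which also serve outside endothelium, differed less: Ctnnb1 was above background in all 28 cluster cells and all 7 HEC (-1.06), and Ctnna1 was lower by 3.41 while still in 26 of 28 cluster cells. Jam3 did not reach the limit (1.43). All 4 measured connexin genes, which form gap junctions, were lower, with Gja4 at -8.80 (3 of 28 cluster cells and 6 of 7 HEC). Of these, Gja1 (-2.45) was at -1.32 without HEC cell 3 and Gja5 (-2.42) at -1.56 without HEC cell 7, short of the limit. Of 18 basement-membrane and matrix genes 17 were lower and 0 higher, with a median of -7.52, the lowest of the lists. The collagen IV chains Col4a1 (-8.59) and Col4a2 (-10.34), the nidogen Nid1 (-9.11), fibronectin Fn1 (-8.54), Sparc (-8.47), Col18a1 (-8.49) and the laminin chains Lama4 (-6.93) and Lamb1 (-6.78) were among them. Hspg2, which encodes perlecan, was the exception at 0.13. Of 13 genes of collagen processing and matrix turnover 11 were lower and 1 higher (median -4.56): the collagen chaperone Serpinh1 was lower by 9.40 and the protease Mmp14 by 7.88, and the collagen prolyl hydroxylase P4ha1 was higher by 2.95.

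Most VEGF and Tie receptors and ligands were lower too. Of 11 VEGF and Tie genes 9 were lower and 2 higher (median -5.69). The receptors Kdr (4 of 28 cluster cells and 7 of 7 HEC, -7.48), Flt4 (-5.99), Flt1 (-4.97) and Tie1 (-5.20) were lower. Tek, the angiopoietin receptor, ran from 2.27 through 7.52 to 12.16 in cluster cells, 16 of which were above background, and from 9.25 through 13.37 to 13.97 in HEC. Its ligand gene Angpt1 ran from 2.39 through 10.47 to 12.02 in cluster cells and from 2.45 through 2.47 to 2.96 in HEC, so that 24 of 28 cluster cells and 0 of 7 HEC had it (6.49). In 13 cluster cells both Angpt1 and Tek were above background. The stem-cell-factor gene Kitl, which encodes the ligand of the gate receptor Kit, was at 2.19 to 2.33 in all cluster cells, and at 12.20 to 14.31 in HEC except HEC cell 2, at 2.32 (-9.47). Of 12 Notch receptors, ligands and cofactors 6 were lower and 3 higher (median -1.29): Notch4 (-10.14), Notch1 (-6.17), Jag1 (-5.72) and Dll4 (-4.98) were lower, while Notch2 (2.42), Rbpj (2.31) and Rfng (2.18) were higher. Without HEC cell 2 the differences of Rbpj (1.82) and Rfng (1.96) no longer reached the limit, and the list median was -0.86 without HEC cell 3 and -2.07 without HEC cell 6. All 4 measured Notch target genes were lower (median -5.92), with Nrarp at -6.87, Hey2 at -6.10, Hey1 at -5.73 and Hes1 at -3.66. Of 10 guidance genes 9 were lower and 0 higher (median -4.58), among them Efnb2 (-9.18), Sema6d (-9.10), Robo4 (-6.39) and Unc5b (-5.40). Of 20 BMP and TGF-beta genes 10 were lower and 1 higher (median -1.68, and -1.10 without HEC cell 2 and -1.09 without HEC cell 5). Of the 10, 4 no longer reached the limit when a single HEC was left out: Smad7 (-1.43) and Tgfbr3 (-1.22) without HEC cell 6, Id1 (-1.89) without HEC cell 5 and Bmp4 (-1.15) without HEC cell 2. The inhibitors of DNA binding Id3 (-8.26) and Id2 (-4.19) and the receptors Acvrl1 (-4.96) and Eng (-4.90) were lower, Smad2 was higher by 4.20, and Tgfbr1 (-0.70), Tgfbr2 (-0.45), Smad4 (0.77) and Smad5 (-0.24) did not reach the limit.

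Of 17 endothelial transcription factors 12 were lower and 0 higher (median -3.75). Epas1 had the largest difference among them (-10.83) and was detected in 2 of 28 cluster cells, numbers 23 and 26, and in 7 of 7 HEC. Sox7 (-9.89), Sox17 (-7.17), Ets1 (-9.75), Foxc1 (-5.55) and Foxc2 (-5.30) were lower, while Fli1 (-0.57) and Klf2 (-0.47), 2 factors that blood cells also use, did not reach the limit, and Erg (-2.77) remained above background in 20 of 28 cluster cells. Of 13 genes of caveolae and the response to blood flow 12 were lower and 0 higher (median -4.84), with the caveolae genes Cav1 (0 of 28 cluster cells and 6 of 7 HEC, -8.38), Cavin1 (-7.94) and Ehd2 (-7.70), and the flow sensor Piezo1 (-2.65) still in 27 of 28 cluster cells. Of 10 genes of the YAP and TEAD pathway, which reads cell shape and contact, 8 were lower and 1 higher (median -4.55). Yap1 was detected in 1 of the 28 cluster cells and 7 of 7 HEC (-8.07), Tead2 differed by -7.60, Wwtr1 by -6.24 and the target gene Ccn1 by -5.84, and the kinase gene Lats1 was higher by 4.42. The contractile and focal-adhesion list was divided, with 11 of 21 genes lower and 3 higher (median -2.04). Cald1 (-9.50), Parva (-5.75), Tpm4 (-5.56) and Actn4 (-3.31) were lower. The talin gene Tln1 (1.46), the paxillin gene Pxn (1.13) and the zyxin gene Zyx (1.40) were above background in all 28 cluster cells and in 6 of 7 HEC each and did not reach the limit. Ilk, which encodes the integrin-linked kinase, ran from 5.34 through 10.46 to 12.77 in cluster cells and from 2.32 through 2.95 to 10.82 in HEC, and was higher by 5.09.

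Imprinted genes of fetal growth were lower as a group: 11 of 14 were lower and 0 higher (median -5.20). Beyond Mest these were Plagl1 (-9.75), the growth factor Igf2 (-8.01), the cell-cycle inhibitor Cdkn1c (-7.96), Asb4 (-6.96), the noncoding RNA gene Meg3 (-6.66), the Igf2 clearance receptor Igf2r (-5.22), Grb10 (-5.18), Peg3 (-5.17), Sgce (-4.93) and Ndn (-3.09). Gnas (-0.75), Impact (1.76) and Dlk1 (0.05) did not reach the limit. Igf2 ran from 2.31 through 3.54 to 14.56 in cluster cells and from 14.35 through 14.84 to 15.05 in HEC. The 11 cluster cells with Igf2 above background held all 8 cluster cells with Fn1 and all 5 with Cdh5. The Igf2-binding genes Igfbp3 (-7.75) and Igfbp2 (-6.83) were lower as well, and the fetal mRNA-binding genes Igf2bp3 (1.05) and Igf2bp1 (1.77), and Hmga2 (1.30), did not reach the limit.

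**Figure D2:**
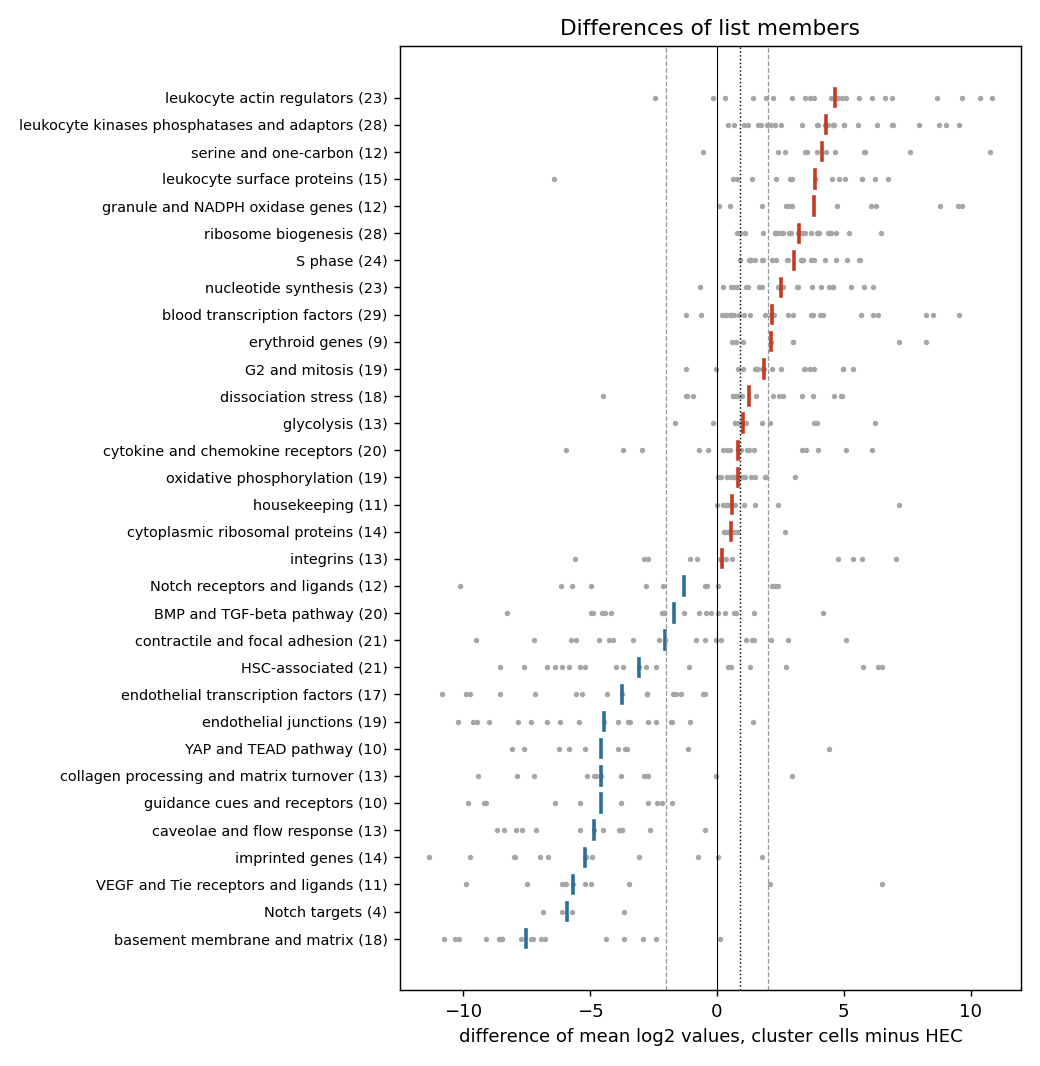
Difference of mean log2 values, E10.5 cluster cells minus HEC, for the measured members of 32 gene lists (grey points, number of members in brackets), with the list median as a bar, red above 0 and blue below. Dashed lines mark differences of 2 either way and the dotted line the median over all genes, 0.91. The lists run from basement membrane and matrix (median -7.52) to leukocyte actin regulators (median 4.64), and oxidative phosphorylation and ribosomal protein genes lie beside the dotted line.

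On the blood side, 16 of 29 transcription factors were higher and 0 lower (median 2.19). Beside Myb and Ikzf1, Nfe2 (27 of 28 cluster cells and 0 of 7 HEC, 8.24), Meis1 (6.34), Myc (6.17), Spi1 (5.68) and Etv6 (4.20) were higher. Spi1 ran from 4.52 through 8.64 to 13.39 in cluster cells and from 2.31 through 2.56 to 4.76 in HEC. The other 13 did not reach the limit, among them Lmo2 (-1.24), Gata2 (-0.62), Hhex (0.34), Cbfb (0.59) and Lyl1 (0.67). Gfi1, in 3 of the 28 cluster cells and 0 of 7 HEC, was also short of it. A small difference alone therefore does not show that both populations express a factor. Runx1, whose enhancer defined the HEC gate, was above background on at least 1 of its 6 probe sets in 24 of the 28 cluster cells and 0 of 7 HEC. The probe set used here gave 20 of 28 and 0 of 7, with a difference of 3.73.

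The list of leukocyte actin regulators had the highest median (4.64), with 18 of 23 higher and 1 lower. Its mean was 9.12 ± 1.16 in cluster cells and 4.51 ± 0.43 in HEC, and the cells did not overlap, with 6.90 to 11.59 in cluster cells and 3.80 to 5.23 in HEC. Beside Plek and Coro1a these included Fermt3 (9.67), the blood Rac isoform Rac2 (8.69), the myosin Myo1g (6.89), the WAVE-complex subunit Nckap1l (6.62), the Wiskott-Aldrich protein gene Was (6.13), the exchange factors Dock2 (4.79), Dock8 (4.92) and Vav1 (4.49), and the GTPase-activating proteins Arhgap30 (5.59), Arhgap9 (5.07) and Arhgap15 (3.81). Evl was lower (-2.45), and Lcp1, which encodes the leukocyte plastin, was above background in all cells of both populations (0.33). Of 28 kinases, phosphatases and adaptors of blood cells 21 were higher and 0 lower (median 4.31). They included the ITAM adaptors Tyrobp (8.76) and Fcer1g (7.95), the phospholipase Pla2g4a (9.02), the leukotriene-pathway protein Alox5ap (6.94), the adaptor Sla (6.89), the phosphatase genes Ptpn6 (6.32) and Inpp5d (5.01), the kinase Syk (4.59) and the PI3-kinase subunit Pik3cd (5.55). Rasgrp2 (1.07) and Jak2 (1.22) did not reach the limit.

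Surface proteins of blood cells were higher in 11 of 15 cases and lower in 1 (median 3.86). Cd52 (6.76), Ly6e (6.23), Evi2a (5.72), the sialophorin gene Spn (5.71), Cd53 (5.04) and the hyaluronan receptor Cd44 (3.86) were higher, and Cd93, which endothelium also expresses, was lower (-6.42). Integrins differed by member: Itga4 (25 of 28 cluster cells and 0 of 7 HEC, 7.06), Itgb2 (5.72), Itgb3 (5.35) and Itgal (4.76) were higher, Itga9 (-5.60), Itga1 (-2.87) and Itga5 (-2.73) were lower, and Itga6 (0.22) and Itgb1 (-1.06) did not reach the limit. Of 20 cytokine and chemokine receptor genes 5 (25%) were higher and 3 lower (median 0.84), a share and a median close to those of all measured genes (27.99% and 0.91). The GM-CSF receptor chains Csf2rb (6.12) and Csf2ra (5.07) and the G-CSF receptor Csf3r (3.99) were higher, and Lifr (-5.94), Il6st (-3.70) and S1pr1 (-2.94) were lower. Granule and NADPH-oxidase genes were higher in 9 of 12 cases and lower in 0 (median 3.85), led by Mpo (9.68), Prtn3 (9.50), Srgn (8.80), Serpinb1a (6.27), Lyz2 (6.07) and the oxidase subunit Ncf1 (4.73). Elane, another granule protease, was in 3 of the 28 cluster cells and 0 of 7 HEC (0.50).

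Genes of biosynthesis formed a further group, set here beside 27.99% higher and 9.21% lower over all measured genes. Of 12 serine and one-carbon genes 11 were higher and 0 lower (median 4.12). All 3 enzymes from glycolytic carbon to serine were among them: Phgdh (10.78), Psat1 (5.78) and Psph (7.62). Psph ran from 4.62 through 10.46 to 13.17 in cluster cells and from 2.42 through 2.44 to 4.04 in HEC. The folate-linked enzymes Shmt1 (5.82), Shmt2 (4.64), Mthfd1l (4.29), Mthfd2 (3.95) and Mthfd1 (3.56) were higher as well. Of 23 nucleotide-synthesis genes 14 were higher and 0 lower (median 2.54), including the purine enzymes Gart (6.16), Ppat (5.28) and Adsl (4.42) and the pyrimidine enzymes Ctps2 (5.80), Umps (4.58), Dhodh (4.56) and Cad (4.12). Aprt (0.67) and Dck (1.15), salvage enzymes, did not reach the limit. Ctps (2.54) was at 1.69 without HEC cell 6. The mean over the nucleotide list was 8.06 to 11.86 in cluster cells and 5.00 to 10.15 (HEC cell 3) in HEC, so the populations overlapped. Over the 28 cluster cells the mean of the serine list correlated with the number of probe sets above background at r = 0.67. The part of that number in the differences was not tested. The transporters Slc16a1 of lactate and pyruvate (8.13), Slc7a5 (5.08), Slc1a5 (4.36) and Slc7a1 (4.34) of amino acids and Slc2a3 of glucose (4.21) were higher, whereas Slc2a1 (-0.35), Slc38a2 (-0.76) and Slc38a1 (1.31) did not reach the limit.

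Ribosome biogenesis genes were higher in 24 of 28 cases and lower in 0 (median 3.22), such as Nop16 (6.45), Nop2 (5.20), Noc4l (4.68), Polr1e (4.51), Ddx21 (4.46) and Wdr12 (4.04). The mean over this list was 11.35 ± 0.97 in cluster cells and 8.15 ± 1.83 in HEC. It ran from 9.43 to 12.97 in cluster cells and from 6.19 to 11.18 (HEC cell 3) in HEC, so the populations overlapped. Some genes of ribosome biogenesis fell short of the limit without a single HEC, such as Bop1 (1.44 without HEC cell 4), Gar1 (1.33 without HEC cell 1) and Nhp2 (1.28 without HEC cell 5). Over all measured genes 27.99% were higher and 9.21% lower. The genes of the finished cytoplasmic ribosome were nearly level: 1 of 14 was higher and 0 lower (median 0.54), and the list mean was 14.89 ± 0.34 in cluster cells and 14.22 ± 0.54 in HEC. Oxidative phosphorylation genes also lay near the median of all genes, with 1 of 19 higher (median 0.81), and glycolysis genes with 4 of 13 higher (median 1.03), among them Hk2 (6.22), Pdk1 (3.96) and Pfkm (3.82). Of 24 S-phase genes 16 were higher and 0 lower (median 3.05), including Cdc6 (5.62), Rfc3 (5.13), Mcm7 (4.69) and Mcm3 (4.25). Mcm3 was between 12.32 and 14.77 in all 28 cluster cells, and in HEC it was above background in 5 of 7, with a highest value of 12.81. Of 19 genes of G2 and mitosis 9 were higher and 0 lower (median 1.87), such as Aurka (5.37), Bub1 (4.96) and Ccnb2 (4.95). The kinase gene Cdk6 was detected in 28 of the 28 cluster cells and 3 of 7 HEC (7.46), and Ccnd1 (-4.12) and Cdkn1c (-7.96) were lower. The mean over the S-phase list was 9.02 to 13.16 in cluster cells and 4.59 (HEC cell 5) to 11.01 (HEC cell 3) in HEC. The mean over the list of G2 and mitosis was 6.15 to 13.59 in cluster cells and 3.51 to 11.10 in HEC. The populations therefore overlapped in both. The S-phase median was 2.27 without HEC cell 5 and 3.64 without HEC cell 3. Cdt1 (2.80) was at 1.55 without HEC cell 2, and Rrm2 (2.51) at 1.29 without HEC cell 6. Over the 28 cluster cells the number of probe sets above background correlated with the list means. Pearson r was 0.76 for ribosome biogenesis, 0.61 for S phase and 0.69 for G2 and mitosis. The part of that number in the differences was not tested.

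Of 810 genes above background in all 28 cluster cells and all 7 HEC, 31 were higher and 3 lower. Genes at the floor in either population cannot be among the 810, so nothing is read from these counts. The 3 were Egfl7, a secreted endothelial protein (-2.31), Tsc22d1 (-2.25) and Ppdpf (-2.16, and -1.83 without HEC cell 1), and Vim, the intermediate filament vimentin, at -1.69, did not reach the limit. Among the largest positive differences were those of the sorting nexin Snx5 (3.08), the DNA-repair enzyme Apex1 (2.92), the dUTPase gene Dut (2.67), the glutathione peroxidase Gpx1 (2.62) and the transketolase Tkt (2.47). Gpx1 was at 14.14 to 15.63 in cluster cells and 10.50 to 14.33 in HEC, so that the ranges met only at their ends. Actb was the same in both, at 14.85 ± 0.43 in cluster cells and 14.85 ± 0.33 in HEC (SD over cells), and Arf1, Arf6 and Lamp1 were level as well. Of the heat-shock and immediate-early genes that dissociation can induce, 8 of 18 were higher and 1 lower. Over all measured genes 27.99% were higher and 9.21% lower. The list median was 1.27, against 0.91 over all genes, and it was 0.76 without HEC cell 4, 2.12 without HEC cell 3 and 2.09 without HEC cell 6. Hspa1a was in 24 of the 28 cluster cells and 2 of 7 HEC (4.95), Junb was at 4.61 and Atf3 at -4.50. Among heat-shock genes, Dnajb1 (2.43) was at 1.12 without HEC cell 5 and Hsph1 (2.21) at 1.62 without HEC cell 2. The part of the collagenase step in these was not tested.

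In 8 families a member lower in cluster cells was set beside a related member that was higher, chosen after the values were seen. Fermt3 encodes the kindlin of blood cells and Fermt2 a widely expressed kindlin, and both bind the tails of beta integrins. Fermt3 was detected in 27 of the 28 cluster cells and 1 HEC, and Fermt2 in 5 of the 28 cluster cells and 7 of 7 HEC (-9.16). All 5 cluster cells with Fermt2 also had Fermt3. Nckap1l, the WAVE-complex subunit of blood cells, was in 27 of the 28 cluster cells and 0 of 7 HEC, and Nckap1, its widely expressed relative, in 5 of 28 and 7 of 7 (-8.94). All 5 cluster cells with Nckap1 had Nckap1l too. Tuba4a (8.35) stood opposite to Tuba1a (-5.58) among alpha-tubulins, Arhgef6 (7.48) to Arhgef15 (-8.93) among exchange factors, Notch2 (2.42) to Notch4 (-10.14), Zeb2 (3.60) to Zeb1 (-5.04), Ifitm1 (4.21) to Ifitm3 (-5.58) and Itga4 (7.06) to Itga9 (-5.60). Near-identical copies can share probes, so the tubulin and Ifitm values are less certain than the others.

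**Figure D3:**
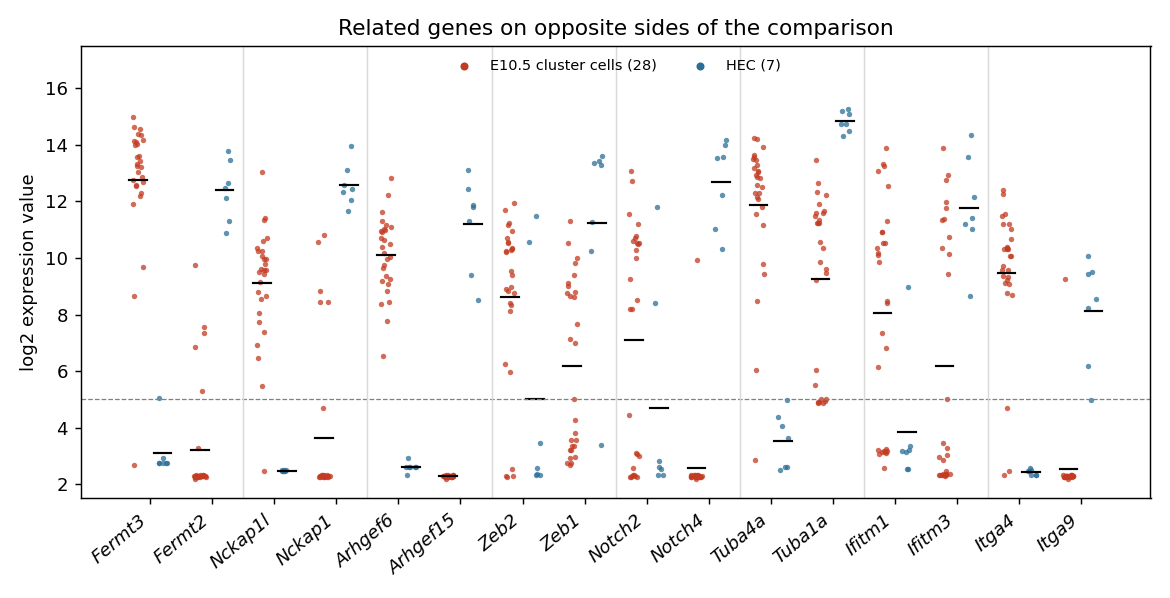
Log2 expression values of 8 pairs of related genes, with 1 point per cell, the 28 E10.5 cluster cells in red to the left of the 7 HEC in blue, bars at the mean and a dashed line at 5. Within each pair the left gene has the higher mean in cluster cells and the right gene in HEC, with clean separation for Arhgef6 and Arhgef15 and much overlap for Zeb2, Zeb1 and Notch2.

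To describe single cells, the members of 11 vessel lists (129 measured genes) and of 6 blood lists (127 genes) were counted in each cell. Vessel genes above background numbered 23 to 67 in cluster cells, with a median of 31, and 88 to 110 in HEC, with a median of 98. Blood genes numbered 66 to 100 in cluster cells, with a median of 86, and 26 to 35 in HEC, with a median of 30. Of the 129 vessel genes 106 were lower and 7 higher in cluster cells (median -4.97), and of the 127 blood genes 80 were higher and 5 lower (median 3.35). Over all measured genes 27.99% were higher and 9.21% lower. The lists were chosen with earlier results of these data known. Genes found only in cluster cells can pass the filter for measured genes, such as 15 of the 29 blood transcription factors, which were in 0 HEC. The parting of the populations on these counts is therefore a description only.

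Cluster cells 26, 17 and 23 had the most vessel genes, with 67, 62 and 55. Cdh5, the cadherin of endothelial junctions, was above background in 5 cluster cells, at 8.59 in cell 12, 11.85 in cell 17, 9.82 in cell 23, 6.52 in cell 26 and 8.25 in cell 28, against 12.24 to 13.95 in HEC. These 5 cells held 39, 62, 55, 67 and 46 vessel genes in that order, and the other 23 cluster cells held 23 to 47, with a median of 29. All 5 also had Esam, another endothelial adhesion gene, which was in 14 cluster cells. Which vessel genes were present differed from cell to cell: of the 5 cells with Cdh5, 1 had Kdr, 1 had Emcn and 2 had Tjp1. Mmrn2 was in cells 17 and 26, at 11.93 and 11.01, Notch4 in cell 22 alone, and Sox7 in cell 26 alone, at 9.63. Cells 27 and 20 had the most blood genes, 100 and 97, with 23 and 26 vessel genes. Over the 28 cluster cells the counts of vessel and blood genes ran against each other (Pearson r = -0.61, Spearman rho = -0.66, and r = -0.67 and rho = -0.62 without cells 17 and 26). This describes cells that share a gate and an array platform, and the number of probe sets above background correlated with the count of blood genes at r = 0.70 and with that of vessel genes at r = -0.29.

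**Figure D4:**
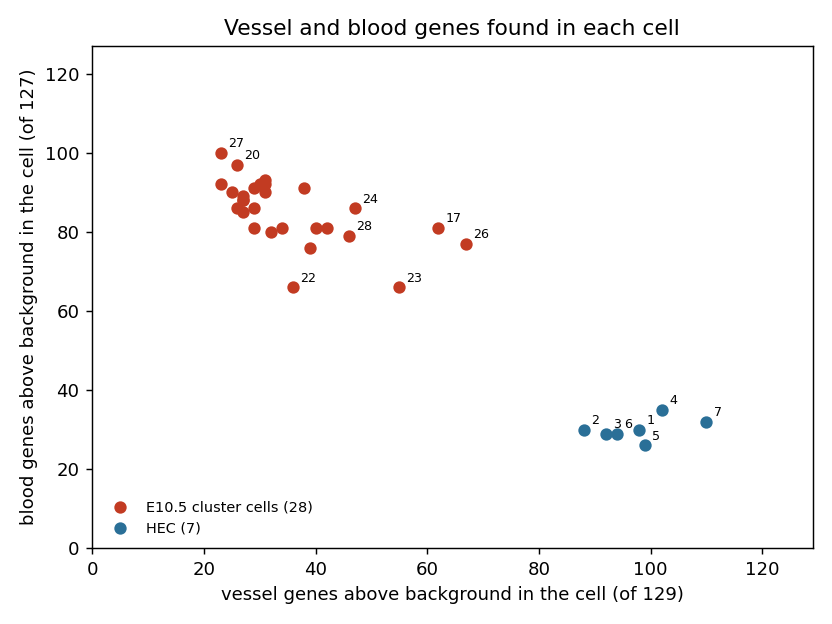
Number of vessel genes (of 129) against number of blood genes (of 127) above background in each cell, with the 28 E10.5 cluster cells in red and the 7 HEC in blue and the numbers of some cells written beside them. Cluster cells lie between 23 and 67 vessel genes and HEC between 88 and 110, with cluster cells 17, 23 and 26 nearest to HEC.

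Lineage genes divided the cluster cells further. Of the 9667 measured genes, 651 were absent from all 7 HEC and above background in 7 to 21 of the 28 cluster cells. A further 79 were absent from all 7 HEC and above background in 22 or more. The HEC are few and had fewer probe sets above background, so these counts are a description only. Among the 651, genes with high values in the cells that had them included Plac8 (21 cells), Perp (20 cells), the Fc receptor Fcgr3 (21 cells), Csf2rb (19 cells), the prostaglandin receptor Ptger3 (20 cells), Klf1 (7 cells) and Gata1 (10 cells). Gata1, the factor of red-cell, platelet and mast-cell lineages, was above background in cluster cells 3, 5, 8, 10, 11, 13, 14, 15, 16 and 19, at 8.74 to 12.001, and near the floor in the rest. All 7 cells with the erythroid factor Klf1 were among these 10, and so were 9 of the 11 cells with the mast-cell protease Cpa3. Irf8, a factor of monocytes and dendritic cells, was above background in 8 other cells (1, 2, 4, 7, 18, 20, 21 and 27), at 5.19 to 13.60. No cluster cell had both Gata1 and Irf8, none had both Irf8 and Cpa3, and 10 had neither Gata1 nor Irf8. Mpo was in all 10 cells with Gata1, and Spi1 in 7 of them. Cebpa, a myeloid factor, was in 12 cells, of which 4 had Gata1 and 5 had Irf8. Gfi1b was in 17 cells and Gfi1 in 3, and no cell had both. The pairs given here were picked from a longer set of pairs, and no expected overlap was computed. No exclusion of 1 lineage factor by another is therefore read from them. None of these factors except Spi1 exceeded 3 in any HEC. Because the median cluster cell lacked them, differences of means of Gata1 (2.98), Klf1 (2.14) and Irf8 (2.19) do not describe a typical cell, and the difference of Klf1 was 1.82 without cluster cell 3 and that of Irf8 1.85 without cluster cell 27.

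**Figure D5:**
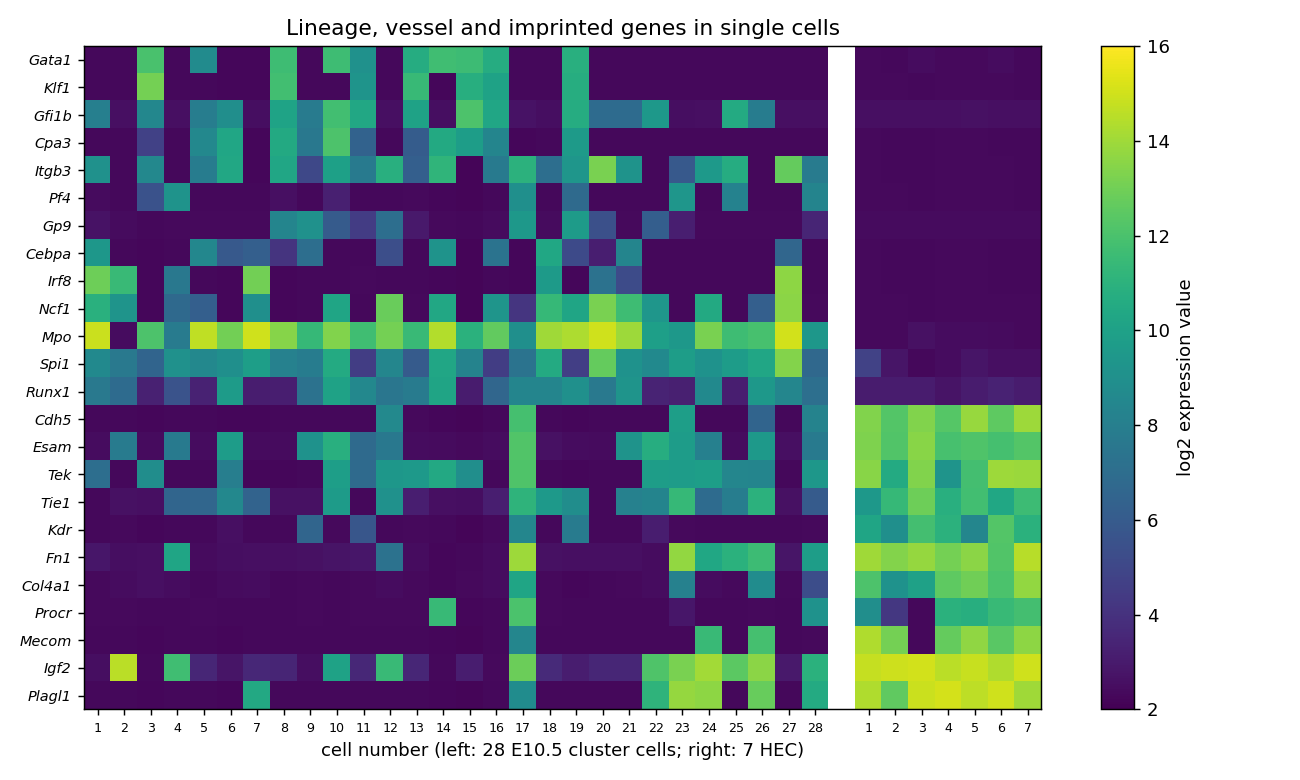
Log2 expression values (colour) of 24 lineage, vessel and imprinted genes (rows) in the 28 E10.5 cluster cells on the left and the 7 HEC on the right, by cell number. Gata1 and Irf8 fall in different cluster cells, Mpo is in nearly all of them, and Cdh5, high in all HEC, is seen in cluster cells 12, 17, 23, 26 and 28.

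Measured genes are above background in at least 3 cells, so genes found in 2 HEC alone are not counted here. Of the 9667 measured genes, 99 were found in no cluster cell and were above background in 3 to 5 of the 7 HEC. Those with the highest mean where present were Igfbp3 (5 HEC), Fam107a (4 HEC), the tetraspanin-like gene Tm4sf1 (3 HEC), the protocadherin Pcdh17 (4 HEC) and Sox17 (5 HEC). HEC resembled each other less than cluster cells did: over all probe sets r between arrays was 0.71 to 0.86 (median 0.78) for pairs of cluster cells, 0.63 to 0.70 (median 0.66) for pairs of HEC and 0.58 to 0.73 (median 0.66) for a cluster cell with an HEC. The part of the number of genes above background per cell in these correlations was not tested.

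The other populations place some of these genes. Cldn5 was detected in 0 of the 28 E10.5 cluster cells, all 7 HEC and 5 of 7 EC, and Mest in 1, 7 and 6 cells. Arhgef15 and Efna1 were lower in EC (means 7.01 and 5.72) than in HEC (11.21 and 12.24), and Epas1 likewise (6.08 and 13.55). Plek stayed high in E12.5 cluster cells (12.86) and was in 3 of 26 HSC, after 2 near-identical arrays were averaged. Myb averaged 11.02 in HSC, and Mpo 7.46 in E12.5 cluster cells and 2.995 in HSC. Several genes low in E10.5 cluster cells were higher in HSC, at the other end of the series: Mecom averaged 3.18 in E10.5 cluster cells, 11.72 in HEC and 10.18 in HSC, Procr 3.25, 8.63 and 8.19, Esam 5.76, 12.46 and 9.70, and Igf2 6.76, 14.78 and 9.91. Tissue and stage differ from HSC as well, so these levels are given side by side only.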

How the data were processed

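Each array held the amplified cDNA of 1 mouse cell. The deposited values are on the log2 scale and were made by the authors with GCRMA in affy, per the submitters' processing notes; the versions are not given in the sources used here. They were used as deposited. GCRMA subtracts background and pulls weak probe sets to a floor, so a difference against a population at the floor depends on that floor. The annotation gave a single gene symbol to 34958 of 45101 probe sets; 932 with several symbols and 9211 that it does not list were left unnamed. Where a gene had several probe sets, the brightest on average was used, each of the 5 populations having equal weight. Means, SDs, counts of cells above 5 and list medians were computed with Python 3.11.15, numpy 2.4.6 and pandas 2.3.3, and the scripts were tested on simulated data. The number of cells limits the precision, above all the 7 HEC.

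The members, gene lists and naming rule were chosen with earlier results of these data known. Named genes were the 25 largest differences each way among genes found in 50% or more of the cells of whichever population was higher, the 15 widest gaps each way among genes without overlap, the 10 largest differences each way and the 10 smallest among genes in all 35 cells, the 15 highest genes found in 7 to 21 cluster cells and 0 HEC, the 10 highest found in 3 to 5 HEC and 0 cluster cells, and members of 52 gene lists. Other scalings, filters, thresholds, summaries and left-out cells were tried. Levels of sex-linked genes are not reported here.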

Additional observations from a re-analysis of the deposited data

Results flagged for a closer look

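In 17 of 98 sets of 7 HEC values examined, 1 HEC lay far from the other 6 by Dixon's criterion. About 1 of 20 sets meets it by chance where values are normally distributed, which these values, with many at a floor, are not, so the number of sets is a description only. Among gene lists, the mean of the guidance list was 9.88 in HEC cell 7, against 6.91 to 8.15 in the others, and that of the macrophage list 4.64 in HEC cell 3, against 2.87 to 2.94. The mean of the mesenchymal and mural list was 6.65 in HEC cell 6, against 2.31 to 2.35, and that of the epithelial and neural crest list 6.03 in HEC cell 2, against 2.33 to 2.37. The mural and the epithelial list have 2 measured genes each, and the macrophage list 5. At most 1 gene of each of these lists was above background in any HEC. These means therefore rest on 1 gene each and show no set of markers.

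For some of the genes with the largest positive differences a single HEC stood above the rest, and which cell it was differed by gene. Coro1a was 7.92 in HEC cell 2 (others 2.71 to 4.13), Ikzf1 9.57 in HEC cell 7 (2.31 to 2.67), the inflammasome adaptor Pycard 9.95 in HEC cell 7 (2.33 to 2.38) and Mpp6 8.94 in HEC cell 1 (2.51 to 2.55). Fermt3 was 5.04 in HEC cell 3 (2.74 to 2.92). The remaining 4 stayed below the background threshold: Fcer1g at 4.10 in HEC cell 6 (2.52 to 2.83), Wdfy4 at 3.68 in HEC cell 4 (2.31 to 2.54), Prps1l3 at 4.26 in HEC cell 1 (2.31 to 2.63) and Pla2g4a at 2.42 in HEC cell 2 (2.31 to 2.35).

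For some of the genes with the largest negative differences a single HEC stood below the rest, either HEC cell 6 or HEC cell 2. Epas1 was 11.68 in HEC cell 6 (others 13.34 to 14.55), and Mmrn2 11.91 in the same cell (13.81 to 14.67). Kitl was 2.32 in HEC cell 2 (12.20 to 14.31), and Sema6d 3.48 in the same cell (11.46 to 13.72).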

How the results depend on the processing

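No paired analysis was possible because the cell numbers of the populations mark no shared animal and no test between the populations was made. Excluding left-out single cells, 24 of 38 counts of genes under other settings stayed within 1.5 times the value reported. Genes higher in cluster cells numbered 4605 and lower 1528 at 1 log2 unit, 1336 and 554 at 3 log2 units, 1701 and 570 with the mean of probe sets, and 1644 higher with quantile normalization. Genes without overlap that were higher numbered 23 with arrays at an equal median and 23 on arrays whose 2 control probe sets hold the value common to most arrays, and those lower 79 with quantile normalization. Of the alternatives chosen after the data were seen, the 7 cluster cells with the fewest probe sets gave 1620 higher genes, and 33 higher and 90 lower without overlap, and leaving out cluster cells 17, 23 and 26 gave 23 higher without overlap. Without each cell in turn the counts were 2501 to 3145 higher, 875 to 977 lower, and 14 to 23 and 45 to 59 without overlap. Of 436 named genes and list members called higher or lower, 58 no longer reached the limit when a single cell was left out.

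List medians under the mean of probe sets were -2.98 for junctions, -4.47 for matrix, -3.73 for caveolae, -2.65 for imprinted genes, 1.39 for blood transcription factors, 2.97 for leukocyte actin and 2.41 for leukocyte kinases. With the median over cells they were -9.82 for matrix, -7.81 for caveolae, -7.21 for imprinted genes, 0.42 for blood transcription factors and 5.73 for leukocyte actin, and Fc receptor and erythroid genes turned to -0.034 and -0.030. Quantile normalization gave 2.89 for leukocyte actin, 2.97 for leukocyte kinases and 2.54 for serine genes, and the 7 cluster cells with the fewest probe sets gave 2.999, 3.10 and 2.98 for the same lists and 1.54 for blood transcription factors. Without the filter VEGF and Tie genes were at -4.23 and contractile genes at -0.995. With the median over cells, genes found in a minority of cluster cells turned: Btk -0.012, Cd48 -0.015, Cpa3 -0.016, Fut4 -0.021, Gata1 -0.030, Irf8 -0.021, Klf1 -0.036, Muc13 -0.013 and Tlr2 -0.021. Klf1 (-0.022) and Rrm2 (-0.23) turned in the 7 cluster cells with the fewest probe sets, Tpx2 (-0.36) on the arrays chosen by control probe sets and Vegfb (-0.11) with quantile normalization; the causes were not tested.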
